A study of Mus musculus with 6 samples.

Results

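Serpins are a superfamily of proteins that share 1 fold. Most members are suicide inhibitors: a serine protease cleaves an exposed loop of the serpin, the serpin snaps around it, and both are trapped. Other members have lost inhibition and act as chaperones or signals. In fibroblasts, secreted serpins set how far proteases of coagulation, plasminogen activation and granulocytes can act on the matrix, and 1 serpin of the endoplasmic reticulum accompanies procollagen. The 6 serpins described here were taken by their names from the deposited tables, out of 46 serpin genes and 19069 genes listed in all. *Serpina3g*, *Serpina3m* and *Serpina3n* belong to the mouse clade A3, a row of duplicated genes that corresponds to the single human α1-antichymotrypsin gene. *Serpine2* encodes protease nexin-1, a cell-bound inhibitor of thrombin and plasminogen activators. *Serpinf1* encodes pigment epithelium-derived factor, a secreted non-inhibitory serpin known as an anti-angiogenic factor, and *Serpinh1* encodes HSP47, the collagen chaperone of the endoplasmic reticulum.

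Cells came from colon tumors that azoxymethane (AOM, a carcinogen) and dextran sulfate sodium (DSS, which causes colitis) induce in mice. All mice carried *Zeb1* fl/fl alleles; 3 were negative for the Col6a1-Cre transgene (FibCtrl; mice 1, 3 and 4) and 3 were positive (FibΔZeb1; mice 2, 5 and 6), in which *Zeb1* is to be deleted in the fibroblasts that use the Col6a1 promoter. Viable cells without EPCAM, CD45 and CD31 were index-sorted, 1 per well, into 1 plate of 384 wells per mouse and read by SORT-seq, in which a barcode is added to the 3′ end of each mRNA molecule. Ages of the mice were not given in the sources used here. Every mouse carried a floxed allele, and every tumor arose under the same inflammatory regimen, so that no group stands for an untreated colon. Cells of a mouse are not replicates; the mouse, which is also the plate, was the unit of every test. The deposited tables of mouse 6 are named with another flow-cell identifier than those of the other mice. The labels give no batch, and as mouse 6 is 1 sample of 1 genotype, a difference between runs and the genotype cannot be told apart in it.

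Of 2304 wells, 1233 had 100 to 6000 genes and less than 10% of their transcripts from the mitochondrial chromosome, and were analysed. The plates held between 1575730 and 3699060 transcripts, spike-ins left out, and the kept wells had medians between 1687 and 11164 transcripts. No pair of kept wells had identical values. Each well was given a type by the marker list with the largest share of detected genes, and no serpin described here is in a list. This gave 566 fibroblast wells (between 15 and 181 per mouse), 79 pericyte-like, 444 neutrophil-like and 72 epithelial-like wells; mice 3 and 6 gave 19 and 15 fibroblast wells and therefore enter no test between types, while their wells count in the comparison of genotypes, in the pooled shares of wells and in the neutrophil-like and epithelial-like ranges. Fibroblast wells were divided into 195 iCAF-like wells and 135 telocyte-like wells (*Foxl1*, *Bmp7*, *Wnt5a*). The iCAF-like name stands for inflammatory fibroblasts, and its marker list includes *Pi16* and *Clec3b*. A further 142 wells were named after *Cxcl13* and *Grem1*, and 94 had no subtype. The *Cxcl13* and *Grem1* list also holds *Edil3*, *Tnfsf13b*, *Hapln1* and *Sfrp2*, and neither name gene was required. *Cxcl13* was detected in 61.3% and *Grem1* in 80.3% of these 142 wells. *Pdgfra*, a defining fibroblast marker, was detected in 91.3%, 94.8% and 96.5% of the wells of the 3 subtypes and in 21.5% of pericyte-like wells, all of which had *Rgs5* and *Notch3*. Among the neutrophil-like wells, 98.2% had *S100a8* and 75.2% had *Ptprc*, which encodes the CD45 by which such cells should have been sorted away. The borders of the subtypes are not sharp, as 61 of 472 wells with a subtype led by 1 marker or less. Of the *Cxcl13* and *Grem1* wells, 52.1% also had at least 3 iCAF markers and 54.9% at least 3 telocyte markers. Of the telocyte-like wells, 23.0% had at least 3 markers of the *Cxcl13* and *Grem1* list.

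*Zeb1* itself was measured at 111, 113 and 96.0 counts per 1000000 transcripts (CPM) in the summed fibroblast wells of FibCtrl mice 1, 3 and 4, and at 57.9, 69.4 and 65.7 CPM in FibΔZeb1 mice 2, 5 and 6. The groups did not overlap, and the exact two-sided permutation test gave p = 0.10, the smallest that 3 mice against 3 allow. As tags lie at the 3′ end and the deleted part of the gene was not given in the sources used here, this level does not measure the deletion. In the edgeR fit across all genes the difference was a log2 fold change of -0.71 (SE 0.21, adjusted p = 1.0).

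The 3 clade A3 genes lie within 178.085 kb on mouse chromosome 12 (GRCm38, plus strand): *Serpina3g* at chr12:104236245-104241939, *Serpina3m* at chr12:104338486-104394257 and *Serpina3n* at chr12:104406729-104414329. *Serpine2* is at chr1:79794197-79861180, *Serpinf1* at chr11:75409769-75422701 and *Serpinh1* at chr7:99345376-99353239, all on the minus strand, and all 6 are annotated as protein-coding. Because near copies can share reads, the last 500 bases of each gene's transcripts were compared with the whole transcripts of the other serpins. For *Serpina3g*, 19.5% of the 50-base words in this window also occurred in *Serpina3f*, *Serpina3h*, *Serpina3i* or 2 pseudogenes, so its count is uncertain; this is a share of words and not of reads, and how many of its transcripts were counted there was not measured. The other members shared none.

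Promoter windows from 250 bases before to 50 bases after the annotated start were read from RefSeq (GRCm38.p6), where 5 of the 6 members matched. The windows of *Serpina3g* and *Serpina3n* are shown because these neighbors were ordered differently across the fibroblast subtypes, as given below. Capitals mark TTCNNNGAA, the palindrome that STAT dimers are known to bind, searched on both strands.
Serpina3g, chr12:104235897-104236196, plus strand: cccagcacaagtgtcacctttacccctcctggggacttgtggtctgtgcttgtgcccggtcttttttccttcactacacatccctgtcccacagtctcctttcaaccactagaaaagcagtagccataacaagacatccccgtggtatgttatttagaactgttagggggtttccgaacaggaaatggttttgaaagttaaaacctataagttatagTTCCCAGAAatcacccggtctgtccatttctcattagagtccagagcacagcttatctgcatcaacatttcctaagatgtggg
Serpina3n, chr12:104406458-104406757, plus strand: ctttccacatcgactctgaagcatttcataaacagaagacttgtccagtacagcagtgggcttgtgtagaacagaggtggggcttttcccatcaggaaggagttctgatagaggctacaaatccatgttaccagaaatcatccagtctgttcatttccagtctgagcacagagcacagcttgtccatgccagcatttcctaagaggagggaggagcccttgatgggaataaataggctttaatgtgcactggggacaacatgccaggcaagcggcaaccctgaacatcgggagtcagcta
The *Serpina3g* window holds 1 match, from base -33 to base -25 relative to the start annotated in RefSeq. This window ends at 104236196, before the gene start of 104236245 given above, so the annotations place the start of *Serpina3g* differently. The window of *Serpina3n* and those of *Serpine2*, *Serpinf1* and *Serpinh1* hold none. Of 32817 promoter windows of this length, 8.29% hold the motif. No member's window held the interferon-stimulated response element (3.43% of all windows) or TATAAA (13.6%). The longest run that the *Serpina3g* and *Serpina3n* windows share is cagagcacagctt, 13 bases, shortly downstream of the marked motif in *Serpina3g*. These matches describe letters and not binding.

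The first question was how the serpins are distributed over the fibroblast subtypes and over the cells around them. Transcripts were summed per mouse and type where at least 10 wells were available: iCAF-like in mice 1, 2 and 5, telocyte-like in mice 1, 2, 4 and 5, *Cxcl13* and *Grem1* fibroblasts in mice 1 and 2, and pericyte-like in mice 1, 2 and 4. Levels are CPM of such a sum, and folds come from edgeR's quasi-likelihood test over 8977 genes with the mouse as a block. Fewer cells of a kind inside a gate and less RNA per cell cannot be told apart in such sums. Between iCAF-like and telocyte-like wells, 4 of the 6 serpins passed an adjusted p of 0.05, 2 of them higher and 2 lower in iCAF-like wells, against 17.3% of all genes tested (9.4% higher and 7.91% lower). Between iCAF-like wells and *Cxcl13* and *Grem1* fibroblasts 3 passed, 1 higher and 2 lower in iCAF-like wells, against 5.81% of all genes (2.81% higher and 3.01% lower), and between *Cxcl13* and *Grem1* fibroblasts and telocyte-like wells 2 passed, both higher in the former, against 4.86% (2.6% higher and 2.26% lower). Between pericyte-like wells and the mean of the 3 fibroblast subtypes, 5 of 6 passed, 1 higher and 4 lower in pericyte-like wells, against 19.6% of all genes (9.75% higher and 9.83% lower).

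**Figure D1:**
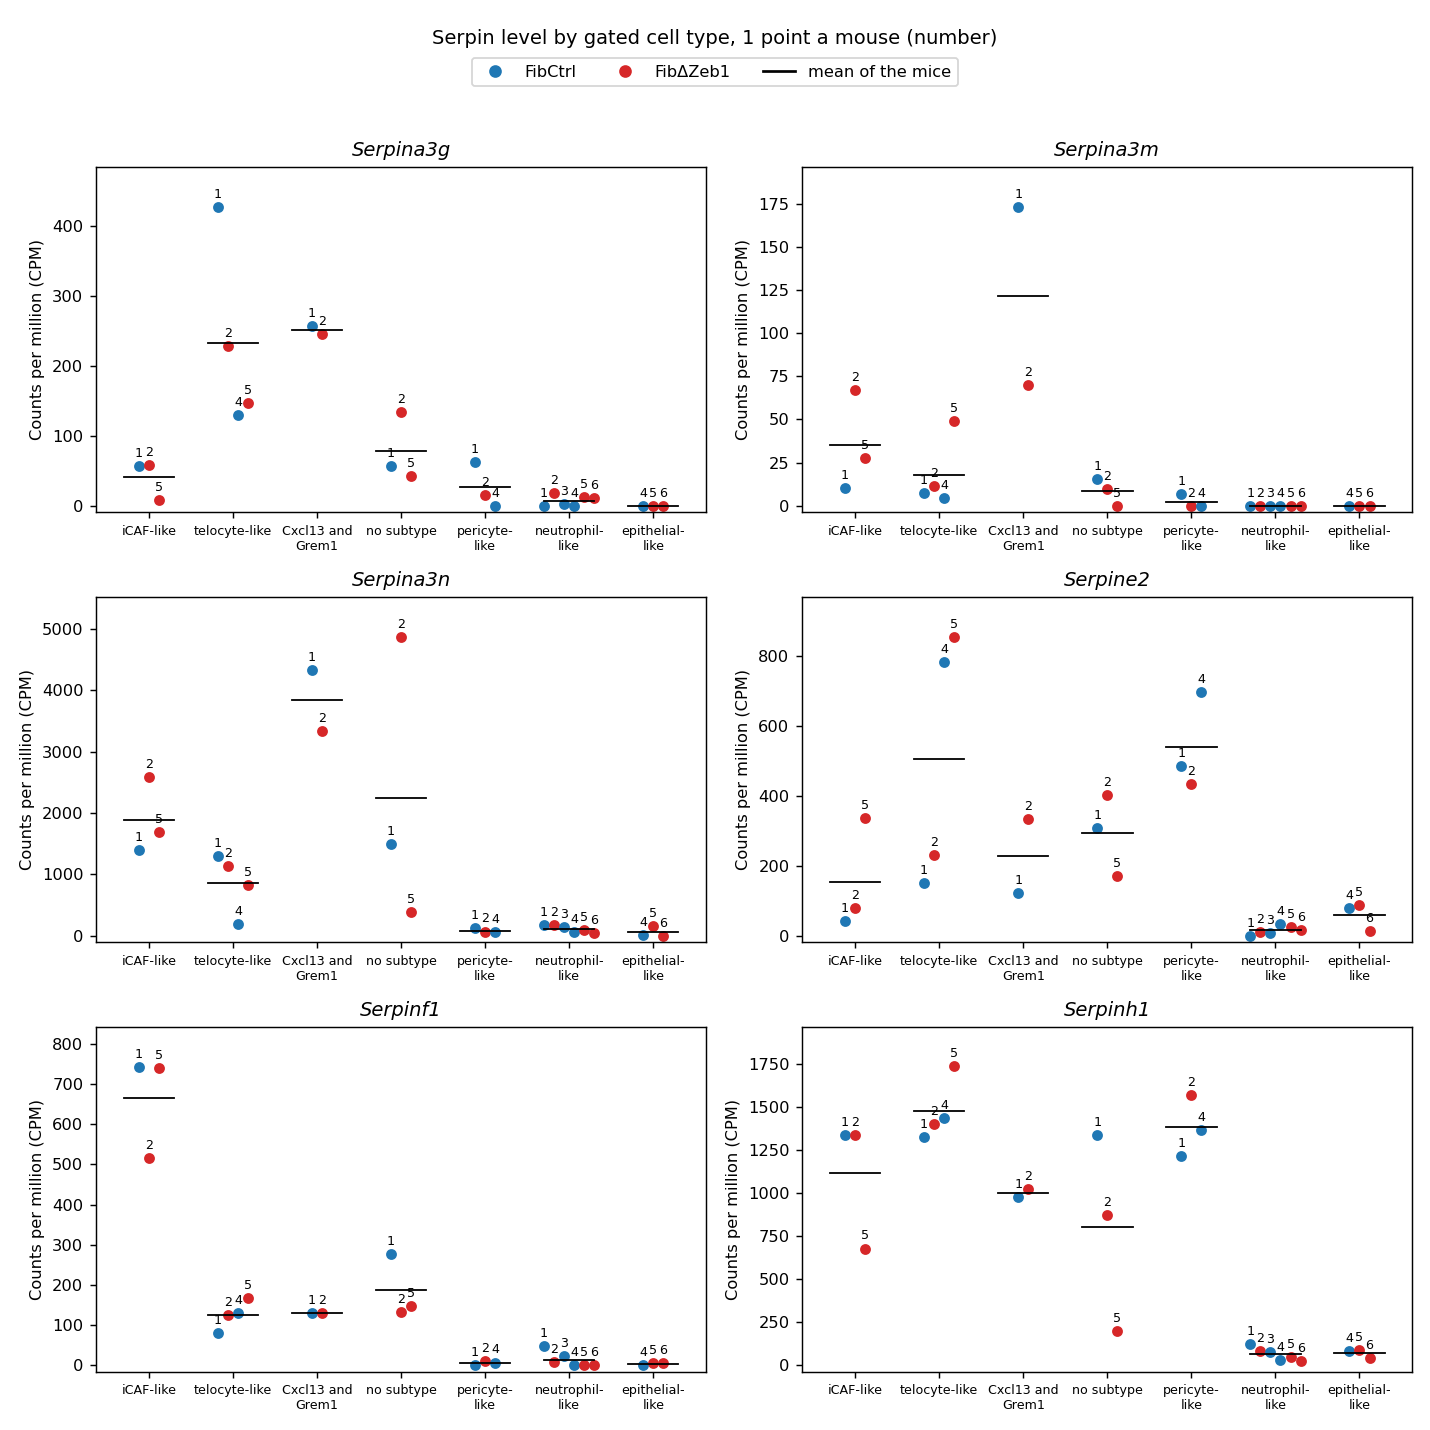
Level of each serpin in CPM (vertical axis, 1 scale per gene) in the summed wells of each gated type (horizontal axis), with 1 numbered point per mouse, colored by genotype, and a bar at the mean of the mice. *Serpina3n* is highest in the *Cxcl13* and *Grem1* fibroblasts among the 3 subtypes, *Serpinf1* lies above 500 CPM in iCAF-like wells only, and *Serpinh1* reaches at most 122 CPM in neutrophil-like and 90.4 CPM in epithelial-like wells.

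*Serpina3g* encodes an intracellular clade A3 protein that is known to be induced by interferon and to inhibit cathepsins. It was measured at 427, 229, 129 and 147 CPM in the telocyte-like wells of mice 1, 2, 4 and 5. The *Cxcl13* and *Grem1* fibroblasts of mice 1 and 2 had 257 and 245 CPM, inside the telocyte-like range. In iCAF-like wells of mice 1, 2 and 5 the level was 56.6, 58.6 and 8.27 CPM. Every iCAF-like sum thus lay below every sum of the other subtypes. *Serpina3g* was 5.90-fold lower in iCAF-like than in telocyte-like wells (log2 fold change -2.56, SE 0.34, adjusted p = 2.1e-05). It was 4.48-fold lower than in *Cxcl13* and *Grem1* fibroblasts (-2.16, SE 0.36, adjusted p = 0.000757), while these did not differ from telocyte-like wells beyond their spread (-0.40, SE 0.33, adjusted p = 0.689). Pericyte-like wells had 63.0, 15.4 and 0 CPM in mice 1, 2 and 4, below the fibroblast subtypes on average (-2.75, SE 0.42, adjusted p = 5.39e-05). That last call was lost in wells thinned to an equal number of barcodes (-1.40, adjusted p = 0.273). In neutrophil-like sums the level reached at most 18.5 CPM, and all epithelial-like sums were at 0.

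*Serpina3m* encodes a secreted clade A3 protein whose function is less well known. It had 173 and 70.2 CPM in *Cxcl13* and *Grem1* fibroblasts of mice 1 and 2. The level was 10.4, 67.3 and 27.6 CPM in iCAF-like wells of mice 1, 2 and 5 and 7.30, 11.3, 4.45 and 49.0 CPM in telocyte-like wells of mice 1, 2, 4 and 5. Its lowest *Cxcl13* and *Grem1* sum therefore exceeded its highest iCAF-like sum by a small margin, and the other subtypes overlapped. The difference between *Cxcl13* and *Grem1* fibroblasts and telocyte-like wells was 8.69-fold (log2 fold change 3.12, SE 0.67, adjusted p = 0.00848); without mouse 1 it was 1.78 with an adjusted p of 0.414. Against iCAF-like wells the level in these fibroblasts did not pass (iCAF-like minus *Cxcl13* and *Grem1* -1.92, SE 0.60, adjusted p = 0.0736), although it passed in 6 alternative settings. In pericyte-like wells a single transcript was counted in 3 mice. Fibroblast subtypes had 273 transcripts, a pooled ratio of 42.7 with an interval of 7.59 to 1691 that covers counting error only, and the fit gave an adjusted p of 0.0137. Without mouse 2 the pericyte call was lost (adjusted p = 0.233), and with a lead of 2 markers in the gate it was lost too (adjusted p = 0.0531). Neutrophil-like and epithelial-like sums had no transcript of *Serpina3m*.

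*Serpina3n* encodes the secreted acute-phase member of the clade, an inhibitor of granzyme B, cathepsin G and neutrophil elastase. It reached 4332 and 3336 CPM in *Cxcl13* and *Grem1* fibroblasts of mice 1 and 2. In iCAF-like wells of mice 1, 2 and 5 it was 1399, 2593 and 1682 CPM, and in telocyte-like wells of mice 1, 2, 4 and 5 it was 1293, 1142, 190 and 821 CPM. No sum of 1 subtype overlapped with that of another, with the 3 subtypes in this order, but in mouse 1 the iCAF-like and telocyte-like wells were close. *Serpina3n* was 3.62-fold higher in *Cxcl13* and *Grem1* fibroblasts than in telocyte-like wells (log2 fold change 1.86, SE 0.30, adjusted p = 0.000849). It was 2.15-fold higher in iCAF-like than in telocyte-like wells (1.11, SE 0.26, adjusted p = 0.00559), a call that was lost in thinned wells (0.70, adjusted p = 0.0858) and without mouse 2 (0.90, adjusted p = 0.0703). The step between iCAF-like wells and *Cxcl13* and *Grem1* fibroblasts did not pass (-0.75, SE 0.31, adjusted p = 0.212) but did in 3 alternative settings. Fibroblast wells without a subtype spread from 383 CPM in mouse 5 to 4873 CPM in mouse 2. Pericyte-like wells had 119, 66.6 and 51.2 CPM, 22.3-fold lower than the fibroblast subtypes (-4.48, SE 0.35, adjusted p = 1.49e-08), which lies within the 38.6 to 176 CPM of neutrophil-like sums. Relative to telocyte-like wells, iCAF-like wells were thus lower in *Serpina3g* and higher in its neighbor *Serpina3n*.

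**Figure D2:**
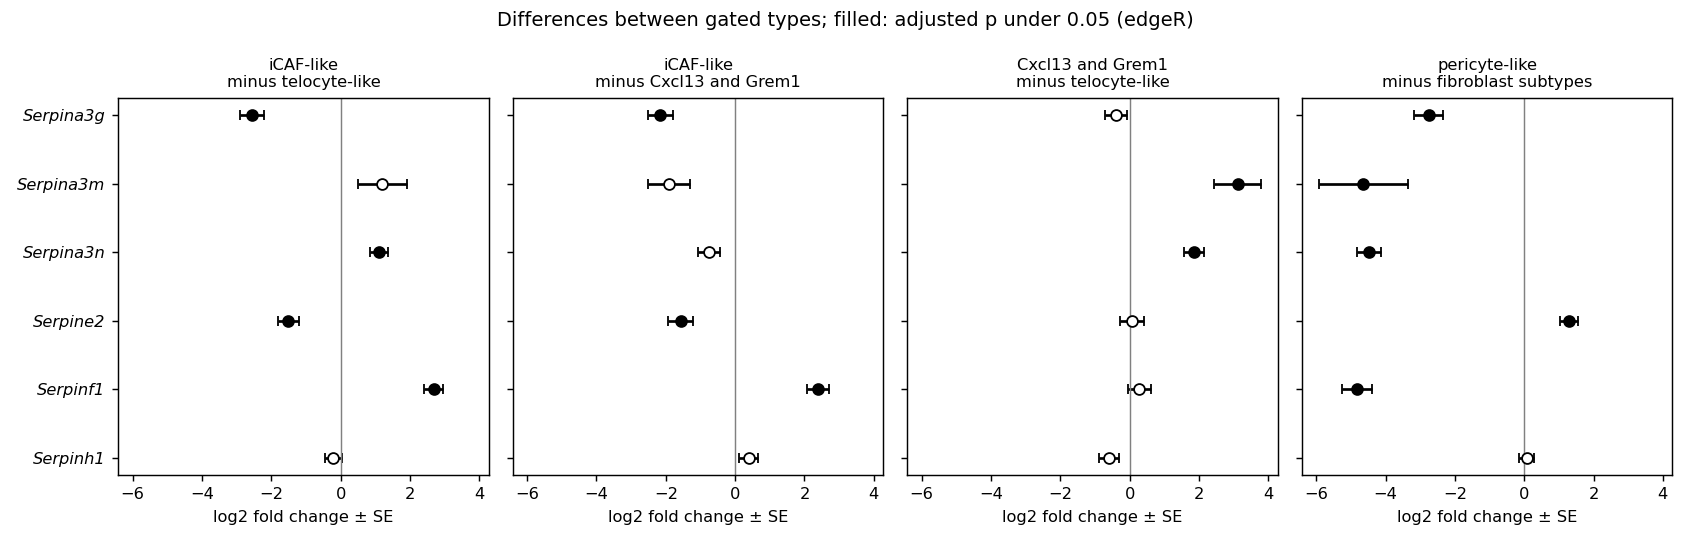
Log2 fold change with its standard error (horizontal axis) of each serpin in the 4 comparisons of gated types, from edgeR with the mouse as a block; filled points have an adjusted p below 0.05. *Serpina3g* and *Serpinf1* lie on opposite sides of 0 in iCAF-like minus telocyte-like wells, at -2.56 and 2.68, and *Serpine2* is the only member to the right of 0 with a filled point in pericyte-like wells.

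*Serpine2*, the inhibitor of thrombin and urokinase, was the member called higher in pericyte-like wells than in the mean of the 3 fibroblast subtypes. Pericyte-like wells had 484, 434 and 696 CPM in mice 1, 2 and 4. Telocyte-like wells had 151, 231, 781 and 854 CPM in mice 1, 2, 4 and 5. The values of telocyte-like wells fall into 2 low and 2 high mice, with 1 FibCtrl and 1 FibΔZeb1 mouse in each pair. *Cxcl13* and *Grem1* fibroblasts had 123 and 334 CPM in mice 1 and 2, and iCAF-like wells had 42.7, 78.1 and 335 CPM in mice 1, 2 and 5. Within each of these mice the iCAF-like sum was the lowest of the subtypes measured, though the ranges over mice overlap. *Serpine2* was 2.84-fold lower in iCAF-like than in telocyte-like wells (log2 fold change -1.51, SE 0.31, adjusted p = 0.00177). Against *Cxcl13* and *Grem1* fibroblasts it was 2.96-fold lower (-1.57, SE 0.36, adjusted p = 0.0127), a call that was lost in thinned wells (adjusted p = 0.327), without mouse 2 (adjusted p = 0.604) and with another count of mitochondrial genes (adjusted p = 0.0866). Pericyte-like wells were 2.45-fold higher than the mean of the fibroblast subtypes (1.30, SE 0.26, adjusted p = 0.000872), which did not pass without mouse 1 (0.76, adjusted p = 0.0726) or with a lead of 2 markers in the gate (0.77, adjusted p = 0.0512). Pericyte-like and telocyte-like sums overlapped, and in mouse 4 the telocyte-like level (781 CPM) was above the pericyte-like one (696 CPM). Pericyte-like against telocyte-like wells alone was not tested. Epithelial-like sums ranged from 14.1 to 87.7 CPM and neutrophil-like sums from 0 to 31.8 CPM.

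*Serpinf1* was highest in iCAF-like wells, where it was measured at 743, 515 and 740 CPM in mice 1, 2 and 5. *Cxcl13* and *Grem1* fibroblasts had 130 and 131 CPM, and telocyte-like wells 80.3, 124, 129 and 168 CPM. All 3 iCAF-like sums lay above all other sums. The difference from telocyte-like wells was 6.41-fold (log2 fold change 2.68, SE 0.28, adjusted p = 1.5e-06), and from *Cxcl13* and *Grem1* fibroblasts 5.27-fold (2.40, SE 0.32, adjusted p = 0.000106). Both calls held in every alternative that was run. Between *Cxcl13* and *Grem1* fibroblasts and telocyte-like wells no difference beyond the spread was found (0.28, SE 0.32, adjusted p = 0.794). In pericyte-like wells *Serpinf1* was at 0, 10.2 and 7.31 CPM, 28.2-fold lower than in the fibroblast subtypes (-4.82, SE 0.44, adjusted p = 9.41e-08), and within the 0 to 48.7 CPM of the neutrophil-like sums.

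*Serpinh1*, the collagen chaperone, was high in every mesenchymal type. Telocyte-like wells had 1326, 1398, 1433 and 1734 CPM, pericyte-like wells 1215, 1566 and 1367 CPM, and iCAF-like wells 1335, 1334 and 678 CPM. The *Cxcl13* and *Grem1* fibroblasts had 979 and 1025 CPM. Neighbors in this order overlapped over mice, and none of the 4 comparisons passed; iCAF-like minus *Cxcl13* and *Grem1* passed in 1 alternative setting, with a lead of 2 markers in the gate (0.76, adjusted p = 0.044). The largest was *Cxcl13* and *Grem1* fibroblasts minus telocyte-like wells, with a log2 fold change of -0.60 (SE 0.28, adjusted p = 0.347), and pericyte-like wells differed from the fibroblast subtypes by 0.08 (SE 0.21, adjusted p = 0.872). Epithelial-like sums, by contrast, ranged from 42.4 to 90.4 CPM and neutrophil-like sums from 27.6 to 122 CPM, below every mesenchymal sum of a named type.

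Because the types differ in depth, each well was also thinned to 1000 barcodes, leaving out 85 shallower wells of FibCtrl and 92 of FibΔZeb1 mice. Neutrophil-like wells, which should lack secreted fibroblast serpins, are given for comparison. Of the wells left out, 131 were neutrophil-like, and the fibroblast transcript *Dcn* was detected in 46.2% of all neutrophil-like wells. Intervals beside shares are Wilson 95% intervals and cover counting error only, and the share before thinning stands in parentheses. At least 1 barcode of *Serpina3n* was found in 95.8% (91.1 to 98.0) of the 142 *Cxcl13* and *Grem1* fibroblasts (100% unthinned), in 52.3% (45.3 to 59.2) of iCAF-like wells (84.6% unthinned) and in 36.3% (28.7 to 44.7) of telocyte-like wells (68.1% unthinned). By mouse, the thinned *Serpina3n* share was 59.7%, 67.7% and 36.9% in iCAF-like wells of mice 1, 2 and 5. Telocyte-like wells of mice 1, 2, 4 and 5 had 42.9%, 50%, 11.1% and 40%. The ranges of these subtypes thus overlap, and in mouse 5 the iCAF-like share was the lower one. In neutrophil-like wells the pooled *Serpina3n* share was 7.35% (12.4% unthinned), and in pericyte-like wells 6.33% (40.5% unthinned). The neutrophil-like wells that were thinned had a median of 1923 transcripts before thinning, far below pericyte-like wells. At such unequal depth these shares do not show whether the pericyte-like barcodes are background. Median depths before thinning were 13520 transcripts in *Cxcl13* and *Grem1* fibroblasts, 10193 in iCAF-like, 14755 in telocyte-like, 11751 in pericyte-like and 1451 in neutrophil-like wells. *Serpinf1* was found in 48.2% (41.3 to 55.2) of thinned iCAF-like wells (93.8% unthinned), against 11.1% in telocyte-like wells (50.4% unthinned), 10.6% in *Cxcl13* and *Grem1* fibroblasts (66.9% unthinned) and 0.958% in neutrophil-like wells (0.901% unthinned). Of 79 pericyte-like wells, 0 had it after thinning (5.06% unthinned), which at this depth allows up to 3.80% of wells with a barcode and sets no limit on wells that express the gene.

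*Serpine2* was found in 36.7% (26.9 to 47.7) of thinned pericyte-like wells (91.1% unthinned) and in 1.28% of neutrophil-like wells (1.8% unthinned). The share was 16.9% (12.3 to 22.8) in iCAF-like wells (45.6% unthinned) and 20% (14.1 to 27.5) in telocyte-like wells (52.6% unthinned). *Cxcl13* and *Grem1* fibroblasts had 21.1% (15.2 to 28.6, 64.8% unthinned), so these 3 intervals overlap. By mouse, iCAF-like wells had 7.46%, 6.45% and 31.0% in mice 1, 2 and 5. Telocyte-like wells had 10.7%, 17.4%, 25% and 30% in mice 1, 2, 4 and 5. *Serpinh1* was found in 68.9% (60.6 to 76.1) of thinned telocyte-like wells (96.3% unthinned), in 49.7% (42.8 to 56.7) of iCAF-like wells (95.4% unthinned) and in 3.51% of neutrophil-like wells (6.76% unthinned). By mouse the *Serpinh1* ranges overlap, with 50% in telocyte-like wells of mouse 1 and 61.3% in iCAF-like wells of mouse 2. The less abundant members left few positive wells at this depth. *Serpina3g* was found in 18.3% (12.8 to 25.5) of *Cxcl13* and *Grem1* fibroblasts (62.0% unthinned) and in 2.05% (0.801 to 5.15) of iCAF-like wells (19.0% unthinned), where the interval includes the 0.958% of neutrophil-like wells (1.13% unthinned). *Serpina3m* was found in 6.34% (3.37 to 11.6) of *Cxcl13* and *Grem1* fibroblasts (51.4% unthinned) and in 0 of 79 pericyte-like wells (1.27% unthinned), with the same limit on detection at this depth only.

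**Figure D3:**
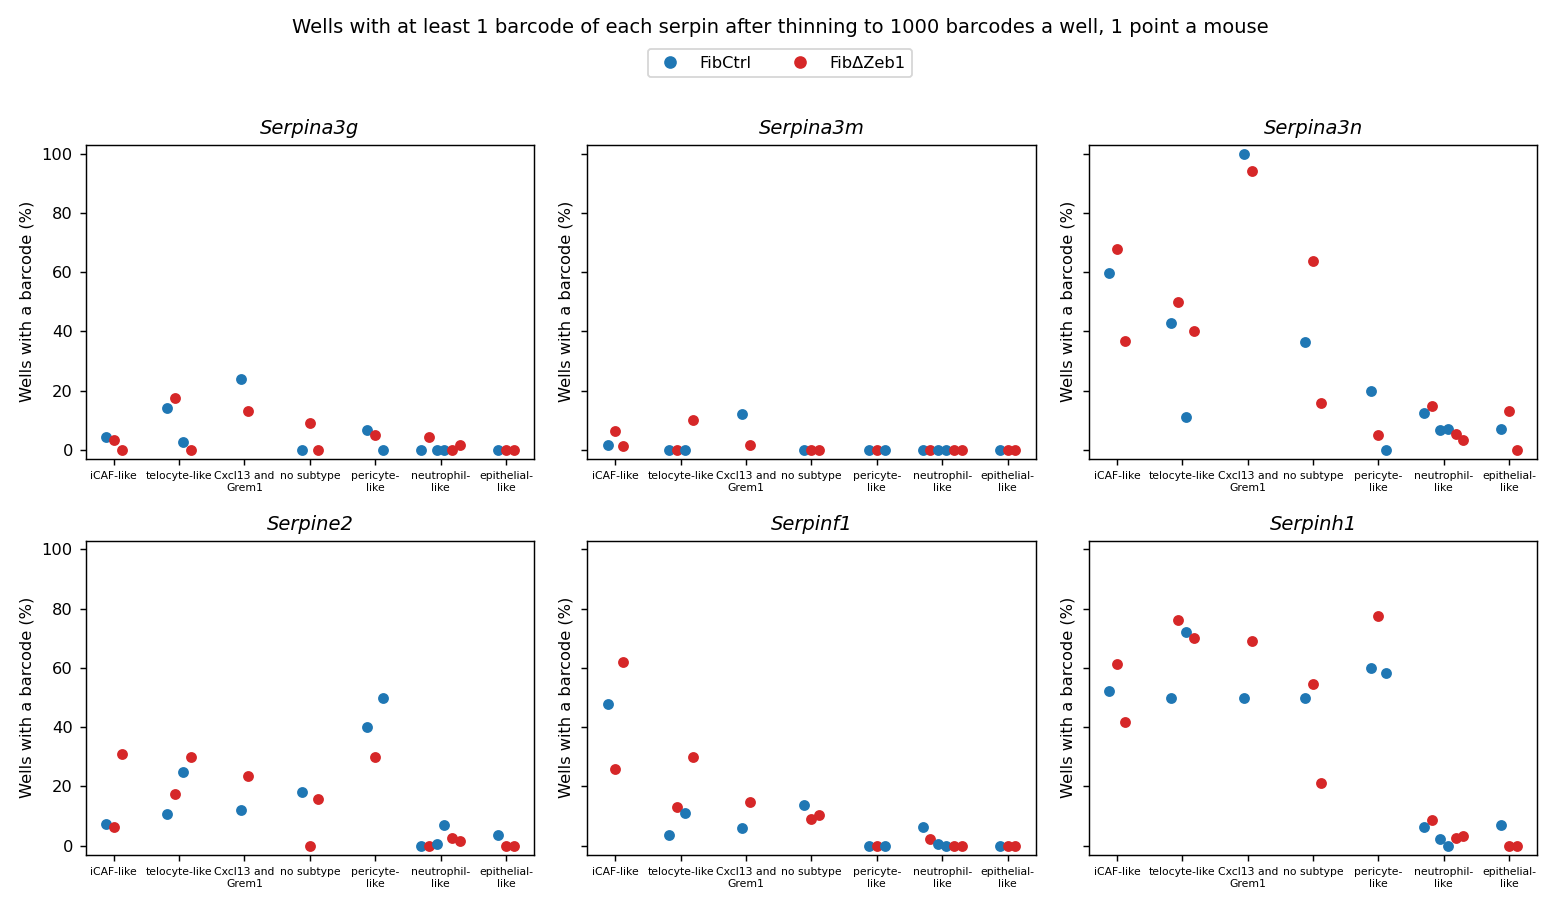
Percentage of wells with at least 1 barcode of each serpin after thinning to 1000 barcodes a well (vertical axis) by gated type (horizontal axis), with 1 point per mouse colored by genotype. *Serpina3n* is found in nearly all *Cxcl13* and *Grem1* wells of both mice, and *Serpinf1* in 48.2% of the pooled iCAF-like wells; by mouse its ranges overlap, with 30% in telocyte-like wells of mouse 5 and 25.8% in iCAF-like wells of mouse 2.

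The second question was whether loss of *Zeb1* in fibroblasts goes with a change of these serpins. All fibroblast wells of a mouse were summed, and edgeR tested 8767 genes over the 6 mice. None of the 6 serpins passed, and none of the 8767 genes did (0% called; 126 had an unadjusted p below 0.05, and DESeq2 called 2, *Actg2* and *Procr*). *Serpina3m* had 63.6, 60.3 and 55.9 CPM in FibCtrl mice 1, 3 and 4 and 46.8, 36.6 and 24.7 CPM in FibΔZeb1 mice 2, 5 and 6. The groups, with means of 60.0 ± 3.86 and 36.0 ± 11.1 CPM (SD, n = 3), did not overlap (exact permutation p = 0.10, log2 fold change -0.61, SE 0.26, adjusted p = 1.0). *Serpinh1* had 1217, 1408 and 1427 CPM in FibCtrl mice 1, 3 and 4 and 1207, 809 and 1013 CPM in FibΔZeb1 mice 2, 5 and 6, where mice 1 and 2 are nearly equal. Its means were 1351 ± 117 and 1010 ± 199 CPM (SD, n = 3; exact permutation p = 0.10, log2 fold change -0.40, SE 0.21, adjusted p = 1.0). Such non-overlap with lower values in FibΔZeb1 mice was seen in 3.33% of all genes tested, and in 6.26% in either direction.

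The mix of subtypes differed from mouse to mouse, and its part in these values was not tested beyond the following. In telocyte-like wells alone, *Serpinh1* had 1326, 1582 and 1433 CPM in FibCtrl mice 1, 3 and 4 and 1398, 1734 and 1028 CPM in FibΔZeb1 mice 2, 5 and 6, where mice 3 and 6 gave only 8 and 7 such wells. The FibΔZeb1 mean was lower by 62.6 CPM (exact permutation p = 0.80), and for *Serpina3m* it was 7.72 CPM higher (exact permutation p = 0.50). In the 4 mice with at least 10 telocyte-like wells, the FibΔZeb1 mean was higher by 185 CPM for *Serpinh1* and by 24.2 CPM for *Serpina3m* (exact permutation p = 0.667 and 0.333, the latter the smallest that 2 mice against 2 allow), so that the direction for *Serpinh1* turned with the mice taken. The subtype in which *Serpina3m* was highest, *Cxcl13* and *Grem1* fibroblasts, made up 27.6%, 21.1% and 13.8% of fibroblast wells in FibCtrl mice 1, 3 and 4 and 40.7%, 6.35% and 26.7% in FibΔZeb1 mice 2, 5 and 6.

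The other serpins overlapped between the genotypes. *Serpinf1* had 376, 181 and 164 CPM in FibCtrl mice 1, 3 and 4 and 205, 552 and 144 CPM in FibΔZeb1 mice 2, 5 and 6 (240 ± 118 and 300.0 ± 220 CPM, SD, n = 3, exact permutation p = 0.70). The iCAF-like share of fibroblast wells was 37.0%, 26.3% and 8.62% in FibCtrl mice 1, 3 and 4 and 18.6%, 66.7% and 20% in FibΔZeb1 mice 2, 5 and 6. Mice 5 and 1 were thus the highest in *Serpinf1* and in this share. *Serpina3n* had 2349, 1979 and 1725 CPM in FibCtrl and 2508, 1713 and 1078 CPM in FibΔZeb1 mice (2017 ± 314 and 1766 ± 716 CPM, SD, n = 3, exact permutation p = 0.60). *Serpina3g* had 192, 173 and 118 CPM against 198, 56.3 and 90.4 CPM (exact permutation p = 0.40), and *Serpine2* 113, 105 and 595 CPM against 251, 379 and 425 CPM (exact permutation p = 0.80). FibCtrl mouse 4 had the highest *Serpine2* level of all 6 mice, and FibCtrl mice 1 and 3 the lowest. With 3 mice per genotype only large and even differences could pass, so these values set no equality of the genotypes.

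**Figure D4:**
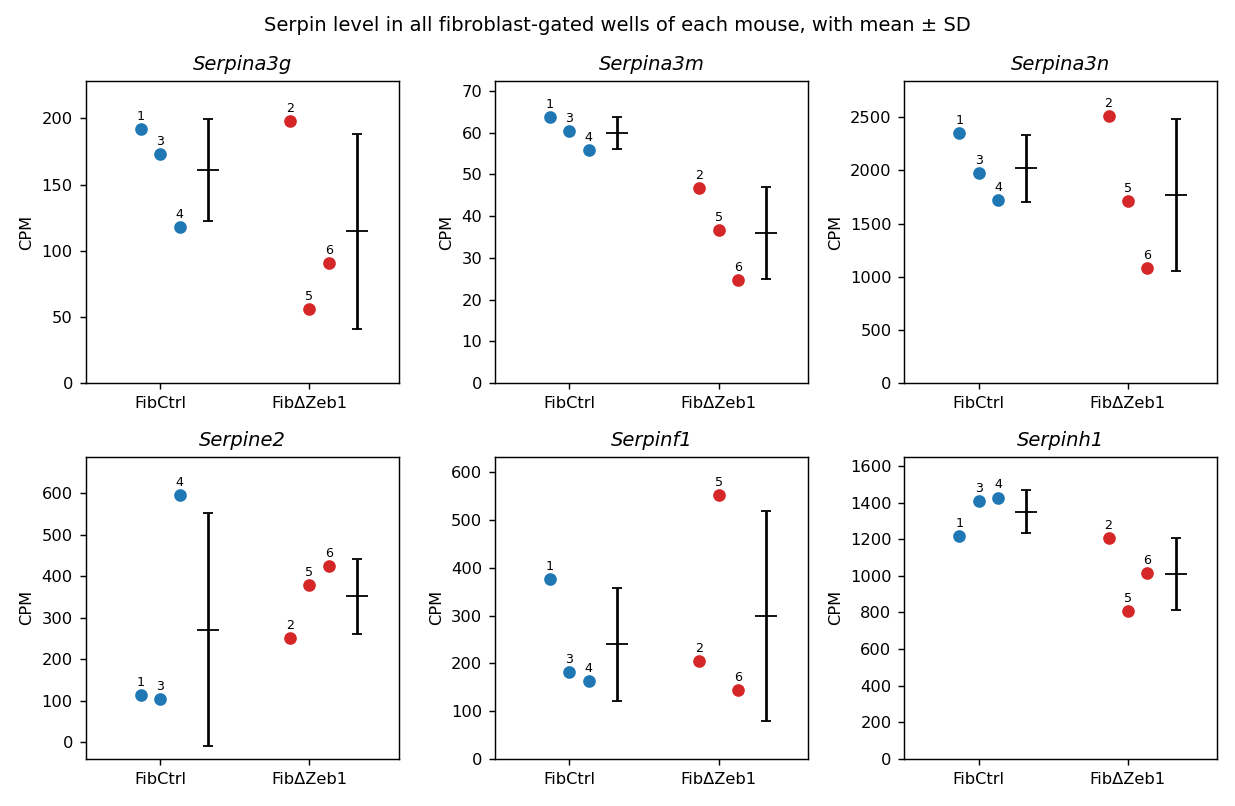
Level of each serpin in CPM (vertical axis) in all fibroblast wells of each mouse, with numbered points for FibCtrl and FibΔZeb1 mice and the mean ± SD of 3 mice beside them. *Serpina3m* and *Serpinh1* do not overlap between the genotypes; the lower end of the FibCtrl bar of *Serpine2* reaches below 0 because mouse 4, at 595 CPM, lies far above mice 1 and 3.

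Whether the genotype effect differed between iCAF-like and telocyte-like wells was tested as an interaction, with the mouse as a block. Sums of both types came from FibCtrl mouse 1 and FibΔZeb1 mice 2 and 5. FibCtrl mouse 4 had a telocyte-like but no iCAF-like sum. Within FibCtrl mice, the difference between these types was therefore measured directly in mouse 1 only. No member passed, and 0% of 8977 genes did (254 at an unadjusted p below 0.05, 0 by DESeq2). *Serpinf1* had the lowest p among the members (log2 difference -1.32, SE 0.57, unadjusted p = 0.029, adjusted p = 1.0).

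The other serpins of the tables were followed as a list. Of 40, 9 were abundant enough to be tested between types and 7 between genotypes, where none passed (0 higher, 0 lower). Between iCAF-like and telocyte-like wells 3 were higher and 3 lower in iCAF-like wells (9.4% and 7.91% of all genes). *Serping1*, the C1 inhibitor of the complement system, had 2945, 2183 and 3395 CPM in iCAF-like and 1579, 2003, 1289 and 1523 CPM in telocyte-like wells (1.01, SE 0.22, adjusted p = 0.00266). *Serpinb6a*, an intracellular inhibitor, was higher in iCAF-like wells as well (1.01, SE 0.22, adjusted p = 0.00291), while *Serpinb1a* (-0.29, adjusted p = 0.617) and *Serpinb9*, the granzyme B inhibitor (-0.97, adjusted p = 0.179), did not pass.

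Lower in iCAF-like wells were *Serpina3f*, *Serpinb6b* and *Serpind1*. *Serpina3f* is a neighbor of *Serpina3g*, and its transcripts hold words from the 3′ end of *Serpina3g*. It had 68.1, 65.2, 2.23 and 14.0 CPM in telocyte-like wells of mice 1, 2, 4 and 5. All iCAF-like sums together held 1 transcript of *Serpina3f*. The pooled ratio was 94.6, with a counting interval of 16.5 to 3781 (adjusted p = 2.59e-05). *Serpinb6b* had 2 transcripts in iCAF-like sums and 58.4, 26.3, 55.7 and 231 CPM in telocyte-like wells, a ratio of 58.7 (interval 15.8 to 491). *Serpind1*, heparin cofactor II, had no transcript in iCAF-like sums and 43.8, 7.53, 26.7 and 62.9 CPM in telocyte-like wells of mice 1, 2, 4 and 5 (adjusted p = 0.000685). *Serpini1*, neuroserpin, an inhibitor of tissue plasminogen activator, was higher in pericyte-like wells at 91.0, 87.0 and 73.2 CPM (2.79, SE 0.37, adjusted p = 1.03e-05).

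Interferon targets were followed because *Serpina3g* is known as one. Of 18 tested, 11 were lower and 0 higher in iCAF-like than in telocyte-like wells (7.91% and 9.4% of all genes), with a median log2 fold change of -1.63 against -0.01 over all genes. *Iigp1*, an interferon-induced GTPase, was lower by a log2 value of -2.97 (adjusted p = 4.00e-05). *Gbp4*, a guanylate-binding protein, had no transcript in iCAF-like sums and 46.2, 99.1, 26.7 and 0 CPM in telocyte-like wells of mice 1, 2, 4 and 5 (adjusted p = 5.28e-05). Mouse 5 thus showed no difference, and mouse 2 held 79 of the 110 telocyte-like transcripts. Relative to *Cxcl13* and *Grem1* fibroblasts, 7 interferon targets were lower in iCAF-like wells and 1, *Ifit1*, was higher (3.01% and 2.81% of all genes; median -1.04 against 0.02). *Cxcl13* and *Grem1* fibroblasts and telocyte-like wells differed in 0 of 18 (median -0.52 against -0.02), where 4.86% of all genes were called. Pericyte-like wells were lower in 1 of 18 (9.83% of all genes), and the genotypes differed in 0 of 18 (0% of all genes).

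Acute-phase genes and targets of NF-κB or STAT3 were followed beside *Serpina3n*. Of 18 tested, 8 were higher and 4 lower in iCAF-like than in telocyte-like wells (9.4% and 7.91% of all genes), with a median of 0.30 against -0.01 over all genes. The genes did not move as 1 group. *Il6* (log2 fold change 3.83, adjusted p = 1.89e-06), *Lif* (3.40, adjusted p = 0.000819), which encode cytokines, *Ccl2* (3.37, adjusted p = 9.93e-05), a monocyte attractant, and *C3* (2.94, adjusted p = 1.28e-08), the central complement protein, were higher in iCAF-like wells. *Lif* had 87.7, 39.1 and 2.76 CPM in iCAF-like wells of mice 1, 2 and 5. In mouse 5 these were 2 transcripts against 0 in telocyte-like wells, and all telocyte-like sums together held 8. Among the 4 genes lower in iCAF-like wells were *Saa3* (-2.86), *Cxcl5* (-2.38) and *Lcn2* (-2.27). In *Cxcl13* and *Grem1* fibroblasts, where *Serpina3n* was highest, 5 were higher and 3 lower than in telocyte-like wells (2.6% and 2.26% of all genes). The median was 0.58 against -0.02 over all genes. *Il6* was higher by 3.10 (adjusted p = 0.000289), while *Saa3* (-4.06, adjusted p = 0.00015), *Lcn2* (-3.30, adjusted p = 0.00112) and *Hp* (-2.77, adjusted p = 0.0148), all secreted acute-phase proteins, were lower. Against *Cxcl13* and *Grem1* fibroblasts, 4 were higher and 2 lower in iCAF-like wells (2.81% and 3.01% of all genes). In pericyte-like wells 2 were higher and 4 lower (9.75% and 9.83% of all genes). Among the lower ones were *C3* (-5.57, adjusted p = 2.53e-11) and *Lbp*, the lipopolysaccharide-binding protein. *Lbp* had no transcript in pericyte-like sums, and its pooled level was 359 CPM in iCAF-like wells, 58.9 CPM in telocyte-like wells and 44.5 CPM in *Cxcl13* and *Grem1* fibroblasts (adjusted p = 1.69e-07).

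Collagens known as clients of *Serpinh1* were counted next. Of 11 tested, 2 were called between iCAF-like and telocyte-like wells, a share near the 17.3% of all genes. Both were lower in iCAF-like wells, the basement membrane chains *Col4a1* (-1.20, adjusted p = 0.000181) and *Col4a2* (-1.09, adjusted p = 0.000376). Against *Cxcl13* and *Grem1* fibroblasts, 3 were higher in iCAF-like wells (2.81% of all genes), led by *Col6a3* (2.59, adjusted p = 2.71e-05) and *Col1a1* (1.26, adjusted p = 0.00611). *Col1a1* had 9821, 6647 and 6037 CPM in iCAF-like wells and 3796 and 3837 CPM in *Cxcl13* and *Grem1* fibroblasts. *Cxcl13* and *Grem1* fibroblasts were lower than telocyte-like wells in 3 and higher in 0 (2.26% and 2.6% of all genes). Pericyte-like wells were higher in 4 and lower in 2 (9.75% and 9.83% of all genes), with *Col4a1* at 5946, 7881 and 5758 CPM (2.03, adjusted p = 1.68e-08). Of 25 genes for collagen folding and secretion, 3 were higher and 0 lower in iCAF-like than in telocyte-like wells, where 9.4% of all genes were higher and 7.91% lower, so that the count is near the background: *P4ha3* (2.29), a prolyl hydroxylase subunit, *Plod2* (1.18), a lysyl hydroxylase, and *Adamts2* (1.12), the procollagen N-proteinase. None of the 25 passed between iCAF-like and *Cxcl13* and *Grem1* fibroblasts (5.81% of all genes). In the latter, 2 were higher than in telocyte-like wells (2.6% of all genes). Pericyte-like wells were higher in 2 and lower in 4 (9.75% and 9.83% of all genes).

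Proteases that serpins can target were mostly too low to be tested: 7 of the 20 listed in the tables passed the filter. Of these, 3 were higher and 1 lower in iCAF-like than in telocyte-like wells (9.4% and 7.91% of all genes). *Plat*, tissue plasminogen activator, a target of *Serpine2*, had 284, 111 and 419 CPM in iCAF-like and 34.9 and 24.8 CPM in *Cxcl13* and *Grem1* fibroblasts (2.96, SE 0.47, adjusted p = 0.000483). It was also higher in pericyte-like wells (2.06, adjusted p = 4.31e-05), as *Serpine2* was. *Htra1*, a secreted serine protease, was lower in iCAF-like than in telocyte-like wells (-1.92, adjusted p = 1.58e-05). *Plau*, urokinase, had no transcript in *Cxcl13* and *Grem1* fibroblasts and 46.2, 8.78, 64.6 and 28.0 CPM in telocyte-like wells of mice 1, 2, 4 and 5 (adjusted p = 0.0254). Of 14 receptors and cofactors of serpins, 5 were higher and 5 lower in iCAF-like than in telocyte-like wells (9.4% and 7.91% of all genes). The heparan sulfate carrier *Sdc1* was the lower one with the smallest adjusted p among those named (-3.02, adjusted p = 4.52e-06), and *Lrp1*, the receptor that clears serpin-protease complexes, was lower in pericyte-like wells at 126, 123 and 278 CPM (-2.40, adjusted p = 9.30e-07). No gene of the 6 lists passed between the genotypes or in the interaction.

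**Figure D5:**
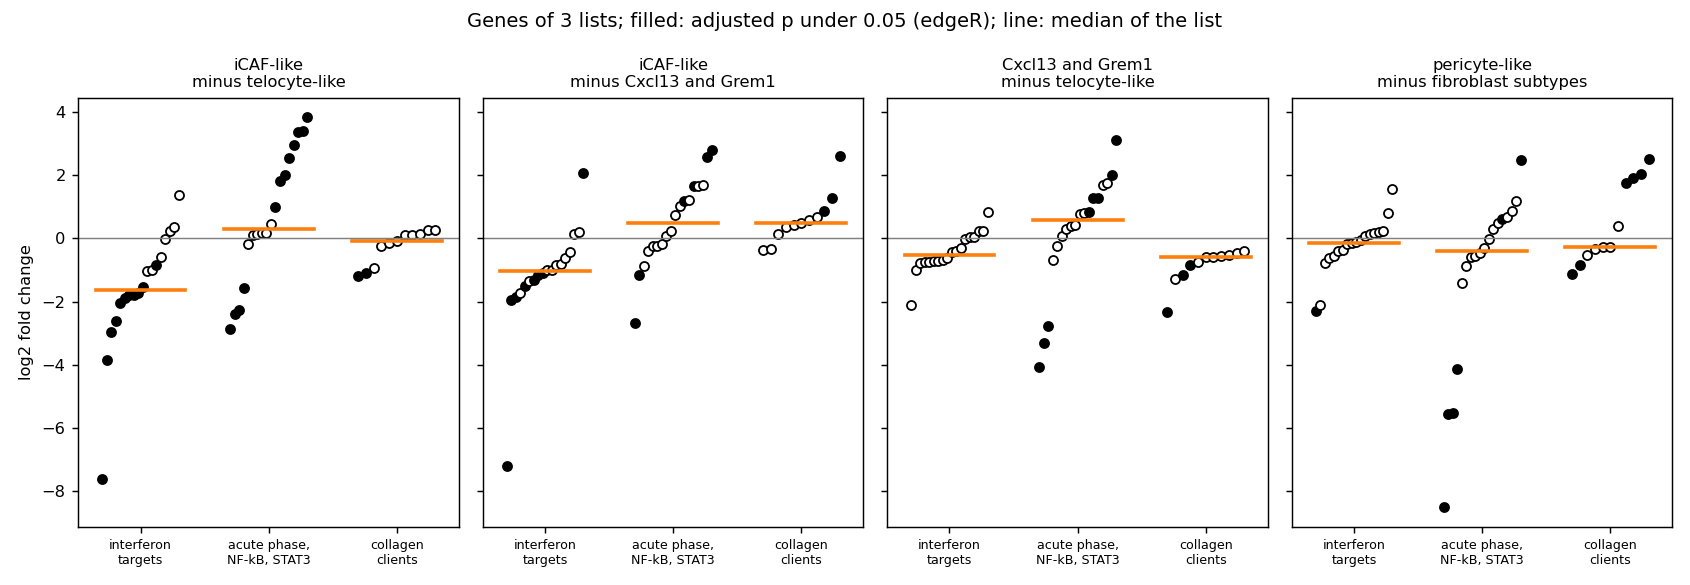
Log2 fold changes (vertical axis) of the genes of 3 lists (horizontal axis) in the 4 comparisons of gated types; filled points have an adjusted p below 0.05 and the orange bar is the median of the list. Interferon targets lie mostly below 0 in iCAF-like minus telocyte-like wells, with a median of -1.63, while acute-phase genes spread to both sides.

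Genes of like pattern were searched as a description over all 24 sums of at least 10 wells, which share mice, plates and depth, on log2(CPM + 1). *Serpinh1* was followed most closely by *Calu* (Pearson r = 0.97), *Sparc* (0.95) and *Thbs3* (0.95). *Serpina3n* was nearest to *Loxl1* (0.92), *Igfbp4* (0.92) and *Dpt* (0.91), of which *Dpt* is a fibroblast marker of the gate. *Serpina3m* was nearest to *Igfbp4* (0.87), *Chl1* (0.87) and *Dclk1* (0.85), and *Serpina3g* to *Abi3bp* (0.92), *Robo2* (0.89) and *Fbln7* (0.87). *Serpinf1* was nearest to *Clec3b* (0.88), an iCAF marker of the gate, *Dnm1* (0.87) and *Htra3* (0.87), and *Serpine2* to *Mrfap1* (0.86), *Emc10* (0.86) and *Nr2f2* (0.86). Among the members themselves, over the 12 sums of fibroblast subtypes and pericytes, *Serpina3m* and *Serpina3n* had r = 0.89, *Serpina3n* and *Serpinf1* 0.76, *Serpina3g* and *Serpina3n* 0.60, and *Serpina3n* and *Serpine2* -0.62. These sums include 3 pericyte-like ones, where *Serpina3g*, *Serpina3m*, *Serpina3n* and *Serpinf1* were low on average and *Serpine2* was not. The values of r therefore do not show how these genes vary within the fibroblast subtypes alone, where r was not computed.

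A group of 21 wells with both *Myoc* and *Angptl7* came from mouse 5 alone, and 18 of them were gated as iCAF-like. Their summed levels were 821 CPM for *Serpinf1*, 739 CPM for *Serpinh1*, 618 CPM for *Serpine2*, 594 CPM for *Serpina3n*, 44.6 CPM for *Serpina3m* and 12.7 CPM for *Serpina3g*. Against the iCAF-like sum of the same mouse, which contains most of these wells, *Serpine2* was higher (335 CPM) and *Serpina3n* lower (1682 CPM); with 1 mouse, this has no replicate check.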

How the data were processed

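Sorted cells of 6 mice were measured by SORT-seq. The authors assigned read 1 to wells, aligned read 2 to the GRCm38 Ensembl transcriptome with bwa and counted with the provider's script; the submitters' processing notes also list Cell Ranger 2.1.1, whose role is not given in the sources used here. As deposited by the authors, 1 table gives whole counts of molecular barcodes for each gene in each well, and the deposited transcript table gives estimated counts that the authors corrected for molecules sharing a barcode. Neither is normalized or filtered.

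Wells with 100 to 6000 genes and under 10% mitochondrial transcripts were kept, spike-ins (7.85% to 18.6% of a plate) were left out, and no doublet caller was run, as 1 cell was sorted per well. A type needed at least 3 detected markers and the largest share of a list. Estimated counts were summed per mouse and type (at least 10 wells), rounded and compared by the quasi-likelihood test of edgeR 4.0.16 in R 4.3.3 (filterByExpr, TMM factors, Benjamini-Hochberg adjustment at 0.05), 1 model for the types with mouse as a block and 1 for the genotypes without a covariate. SE was derived by dividing the log2 fold change by the root of its F statistic. DESeq2 1.42.0 was an alternative, with other filters, gates, mitochondrial definitions, thinned wells and left-out mice. The edgeR steps were tested on simulated data. Levels were compared by exact permutation over mice. Interval bounds are 95% Wilson for shares and exact for ratios of counts, and a floor is 3 counts.

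The named genes are the 6 members, *Serping1* and the Serpinb family where measured, up to 4 genes per list and comparison with the largest fold among those past the threshold, and the 3 genes of most alike pattern with at least 20 CPM. Some genes that this rule takes in are not reported here. *Actg2*, *Procr* and *Dcn*, and *Saa3*, *Cxcl5* and *Lcn2* in iCAF-like minus telocyte-like wells, were named after their values were seen. The members and all lists were chosen with earlier results of these data known.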

Additional observations from a re-analysis of the deposited data

Results flagged for a closer look

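*Serpina3m* in telocyte-like wells stood apart in 1 mouse. FibΔZeb1 mouse 5 had 49.0 CPM, while the nearest of the other 3 mice had 11.3 CPM; the gap was 0.846 of the whole range, above the critical value for 4 samples. The value rests on 7.01 transcripts in 10 wells. Of 11 groups of sums of this size that were examined, 1 stood out in this way, and chance gives about 1 in 20.

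The 1071 wells that were not kept, most of them for their mitochondrial share, were left out of the comparisons in the report, though some were taken in where only mt- genes counted as mitochondrial, which kept 1912 wells. They hold transcripts of all members. Their summed levels were 44.5 CPM for *Serpina3g*, 11.8 CPM for *Serpina3m*, 506 CPM for *Serpina3n*, 144 CPM for *Serpine2*, 61.2 CPM for *Serpinf1* and 466 CPM for *Serpinh1*, where 3 counts would be 0.402 CPM. In the kept wells of all types together the levels were 115, 36.6, 1559, 252, 217 and 993 CPM in the same order, each above the level in the wells that were not kept.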

How the results depend on the processing

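Over the members' tests in 6 comparisons, 521 alternative values were computed; 472 kept direction and side of the threshold, 11 lost a call, 10 gained one and 28 changed sign, none of the last having been called. No paired analysis was possible because the genotypes share no replicate number; the types were already compared within mice. Counts of genes called fell in wells thinned to 1000 barcodes to 248 (iCAF-like minus telocyte-like; 1554 in the report's setting), 100 (iCAF-like minus *Cxcl13* and *Grem1*; 522), 119 (*Cxcl13* and *Grem1* minus telocyte-like; 436) and 365 (pericyte-like; 1757), where fewer counts were available. With sums of at least 4 wells the first of these counts was 863. DESeq2 called 293 genes between iCAF-like and *Cxcl13* and *Grem1* wells, 242 between the latter and telocyte-like wells and 2 between the genotypes (0). With only mt- genes as mitochondrial, iCAF-like minus *Cxcl13* and *Grem1* gave 797, and with a lead of 2 markers *Cxcl13* and *Grem1* minus telocyte-like gave 672. The interaction (0) gave 17 without a filter on low counts, 16 without *Ptprc* or *Epcam* wells and 17 with the gate by mean marker level. Leaving out 1 mouse gave 881 to 1554, 166 to 522, 135 to 436, 864 to 1817 and, for the interaction, 0 to 32; the lowest counts were without mouse 1, and without mouse 2 for pericyte-like wells. Without mouse 1 or 2 the *Cxcl13* and *Grem1* fibroblasts are 1 sum, assumed to vary like the others.

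Signs changed for log2 differences close to 0 or resting on few mice. Between genotypes, leaving out 1 mouse gave -0.50 to 0.10 for *Serpina3n* (0.0051 without mouse 1, 0.10 without mouse 6) and -0.49 (without mouse 5) to 0.92 for *Serpinf1*; CPM differences reached 93.0 for *Serpina3n* without mouse 6 (-622 at the lowest), -1.32 for *Serpine2* without mouse 3 (244 at the highest) and -66.1 for *Serpinf1* without mouse 5 (138 at the highest), and 7.72 for *Serpina3m* in telocyte-like wells only; in the 4 mice with at least 10 such wells they were 24.2 for *Serpina3m*, 241 for *Serpina3n* and 185 for *Serpinh1*. For iCAF-like minus telocyte-like wells, *Serpina3m* was -0.11 without mouse 2 (1.93 at the highest), and *Serpinh1* was 0.16 without *Ptprc* or *Epcam* wells, 0.072 with a lead of 2 markers, 0.12 with the gate by mean level and 0.18 without mouse 5 (-0.53 at the lowest). For *Cxcl13* and *Grem1* minus telocyte-like wells, *Serpina3g* was 0.15 with only mt- genes and 0.10 with 4 wells a sum, and *Serpine2* was -0.026 without *Ptprc* or *Epcam* wells, -0.24 with only mt- genes, -0.54 with 4 wells a sum, -0.40 in thinned wells, -0.53 without mouse 2 and -0.01 without mouse 5 (0.37 at the highest). For pericyte-like wells, *Serpinh1* was -0.13 with only mt- genes, -0.23 with the gate by mean level, -0.25 with 4 wells a sum and -0.028 without mouse 2 (0.25 at the highest). In the interaction, *Serpina3g* was -0.20 with only mt- genes, -0.88 in thinned wells and -1.23 without mouse 2 (0.84 at the highest), *Serpina3m* -0.49 with 4 wells a sum and -1.30 without mouse 2 (1.99 at the highest), *Serpina3n* -0.26 and *Serpinf1* 0.14 with 4 wells a sum, and *Serpine2* -0.54 in thinned wells. Without thinning, shares of wells with a barcode were 62.0% (*Serpina3g*, *Cxcl13* and *Grem1*), 19.0% (*Serpina3g*, iCAF-like), 51.4% (*Serpina3m*, *Cxcl13* and *Grem1*), 100% and 40.5% (*Serpina3n*, *Cxcl13* and *Grem1*, pericyte-like), 91.1% and 45.6% (*Serpine2*, pericyte-like, iCAF-like), 93.8% and 5.06% (*Serpinf1*, iCAF-like, pericyte-like), and 96.3% and 95.4% (*Serpinh1*, telocyte-like, iCAF-like). The cause of these changes was not tested. The interaction could not be fitted with a lead of 2 markers or without mouse 1, and *Serpina3m* was too low to be tested in thinned wells and in telocyte-like wells only. Thinned wells, sums of at least 4 wells and both settings with telocyte-like wells only were chosen after seeing the data. Mice 3 and 6 gave no sum of 10 wells of a fibroblast subtype, so that leaving them out does not touch the comparisons of types.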

Other observations

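Some clade A3 neighbors were found in few wells or few mice. *Serpina3j* was listed on the plate of mouse 5 only, with 52.19 transcripts in 2 epithelial-like wells, 39.17 transcripts in 2 iCAF-like wells and 1 transcript in 1 well without a subtype. *Serpina3b* had 13 transcripts, all in mouse 5, of which 10 were in 3 epithelial-like wells. *Serpina3c* had 25 transcripts in 15 of 195 iCAF-like wells from 3 mice and 4 transcripts in telocyte-like wells. *Serpina3f* had 87.12 transcripts in 20 of 135 telocyte-like wells, with at least 1 in each of the 6 mice. Over all fibroblast wells *Serpina3f* had 18.3, 25.8 and 16.1 CPM in mice 1, 2 and 3 and 1.43, 1.88 and 4.11 CPM in mice 4, 5 and 6. These rest on few counts: all kept wells held 4 transcripts in mouse 3 and 1, 2 and 1 in mice 4, 5 and 6, where the floor is 3 counts. *Serpina3g*, with which *Serpina3f* shares words of sequence, had 192, 198 and 173 CPM in mice 1, 2 and 3 and 118, 56.3 and 90.4 CPM in mice 4, 5 and 6. Each set of mice holds both genotypes. The split was chosen after these values were seen, and the labels give no reason for it.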
